A study of Bos taurus with 6 samples.

Results

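Maternal-effect and meiotic transcripts of the oocyte were followed in bovine cumulus cells exposed to FID, a cocktail that raises cyclic AMP. Cumulus cells are somatic cells that enclose the oocyte in the follicle. The 10 genes are DPPA3, H1FOO, NLRP5, OOEP, PADI6, ZAR1, BTG4, DAZL, MOS and WEE2. They were chosen by name, and every probe that carried one of these symbols in the platform annotation was taken. All 10 had a probe, 21 probes in all out of 43794 on the array, and 17 of these probes, covering all 10 genes, were bright enough to be tested. The array carried 15227 named genes, of which 12362 were tested.

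FID joined 100 µM forskolin, which stimulates adenylyl cyclase, with the phosphodiesterase inhibitors IBMX at 500 µM and dipyridamole at 50 µM. The control cells had no FID, and their label carries 6 h, whereas the culture protocol describes 22 to 24 h of maturation, so the time in culture is not settled here. All complexes came from slaughterhouse ovaries of Holstein cows, had at least 5 layers of cumulus cells, and were cultured in groups of up to 10 at 38.5 °C in medium with 1 µg/ml estradiol. The 3 biological replicates, numbered 1, 2 and 4, came from such complexes, whose number per replicate is not given in the sources used here. FID and control RNA of each replicate were hybridised together on 2 arrays with the dyes exchanged, which gave 6 arrays.

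Maternal-effect genes are transcribed while the oocyte grows, and their products are stored and used after fertilization, before the embryo's own genome becomes active. The meiotic genes hold the oocyte in prophase arrest, carry it through the meiotic divisions or arrest it again until fertilization. Cyclic AMP is a main signal of prophase arrest, and gap junctions couple the oocyte to the cumulus cells. These transcripts are known from the germ line rather than from somatic follicle cells. In RNA extracted in bulk, a different number of cells of a type and a different amount of RNA per cell cannot be told apart.

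Signal is given below as a multiple of the value that 95% of the 153 negative controls in the same channel do not exceed, so that a value above 1 lies above background. A ratio is the log2 ratio of FID over control after normalization, averaged over the dye-swap arrays of a replicate. Median spot intensity was 173 to 294 in FID and 143 to 255 in control. The share of probes above background was 51.2% to 84.3% in FID and 58.5% to 86.7% in control. Across all tested genes the 3 replicates had ratios with an SD of 0.589, 0.750 and 0.773, and replicates correlated at 0.602 to 0.620 across genes, which are not independent replicates. Markers of cumulus and granulosa cells were measured as the labels say: 14 of 15 were tested, and FSHR, the receptor of follicle-stimulating hormone, and the inhibin subunit INHA exceeded background on each of the 6 arrays in FID and in control.

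Over the 10 genes, the ratio was led by replicate 2. The median ratio of the 10 genes was 0.24 in replicate 1, 1.26 in replicate 2 and -0.00 in replicate 4, and 0.48 over the mean of the replicates. Over all 12362 tested genes the corresponding medians were -0.01, -0.01, 0.01 and 0.01. In replicate 2 the ratio was above that of both other replicates for 10 of the 10 genes, against 29.4% of all tested genes, and in replicate 4 it was below both others for 8 of the 10, against 33.2%. The ratio exceeded 1 for 3 of the 10 genes in replicate 1, where 3.76% of all genes did, for 6 of 10 in replicate 2 against 7.09%, and for 1 of 10 in replicate 4 against 7.84%. The mean ratio was above 0 for 10 of 10 genes against 51.4% of all genes, and the ratio was above 0 in 3 of 3 replicates for 5 of 10 against 25.0%. These 5 were DPPA3, MOS, BTG4, ZAR1 and OOEP. In replicate 4 BTG4, ZAR1 and OOEP had only 0.07, 0.13 and 0.00, with ZAR1 not above background in either condition. The control signal of DPPA3 was not above background there, and the ratio of MOS was below 0 on each array with FID in Cy5.

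None of the 10 genes passed the test against this spread. By limma, with p-values adjusted by the Benjamini-Hochberg method over 32124 probes, 0 of the 10 genes were called higher and 0 lower. Of all tested genes 2.36% were called and 1.07% were higher, so 0 of 10 is near the share of all genes. At an unadjusted p under 0.05 there were 2 of the 10 genes, DPPA3 and MOS, both higher in FID, and 28.6% of all genes, or 12.5% in that direction. With all 6 arrays fitted at once, a term for the dye and a random block for the replicate, 1 of the 10 was called, DPPA3, against 20.8% of all genes, or 8.84% in the direction of FID. That fit takes 1 correlation of 0.608 between the arrays of a replicate for all probes. Its p-values here and below therefore do not rest on the spread of the 3 replicates alone. The median SD over the 3 replicates was 0.84 for the 10 genes and 0.26 for all tested genes. An exact sign permutation of 3 replicates cannot give a two-sided p below 0.25.

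**Figure D1:**
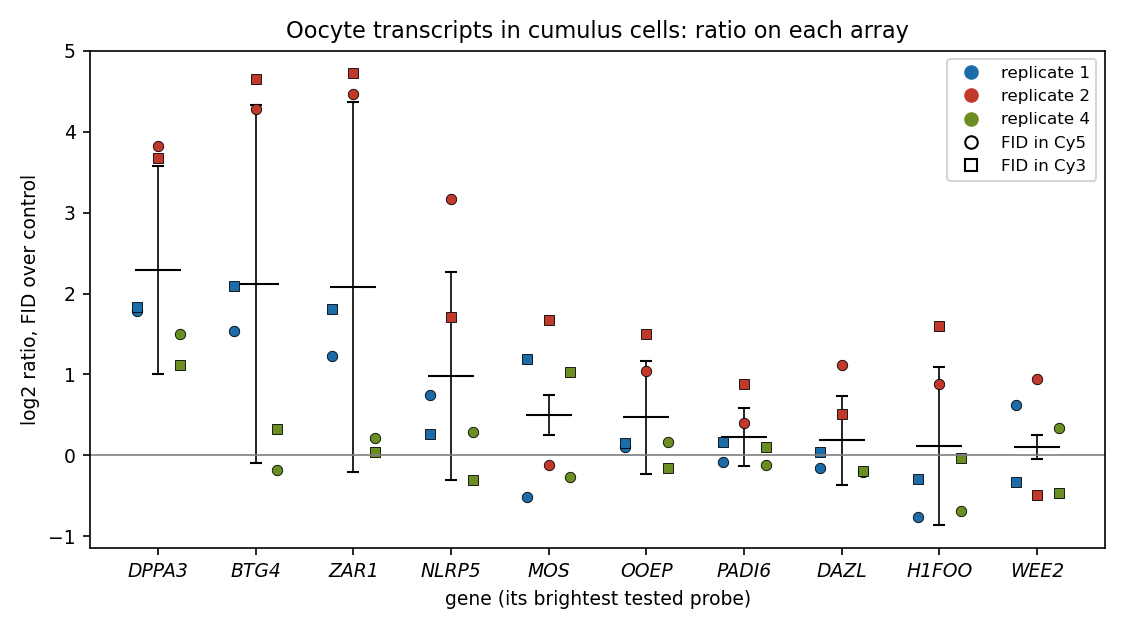
Log2 ratio of FID over control on each of the 6 arrays for the brightest tested probe of each of the 10 genes. Colours mark the replicates, circles the arrays with FID in Cy5, squares those with FID in Cy3, and black bars the mean of the 3 replicates with its SD. DPPA3, BTG4 and ZAR1 reach 3.74, 4.47 and 4.60 in replicate 2, while in replicate 4 only DPPA3 is plotted above 1, against a control signal that was not above background.

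Among the proteins that act on chromatin, DPPA3 had the largest mean ratio of the 10 genes. In the mouse, DPPA3, also called STELLA, protects the maternal genome from demethylation after fertilization. In replicate 1 its signal was 11.3 and 9.41 in FID against 4.39 and 3.71 in control, with the array carrying FID in Cy5 first here and throughout. In replicate 2 it was 21.6 and 24.9 in FID against 2.65 and 3.00 in control. In replicate 4 it was 1.79 and 1.68 in FID against 0.891 and 0.860 in control, so that the control signal there was not above background on either array. FID was brighter than control on 6 of 6 arrays, but the FID signal of replicate 4 lay below the control signals of replicates 1 and 2.

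The ratio of DPPA3 was 1.81 in replicate 1 and 3.74 in replicate 2, or 3.51-fold and 13.4-fold. The 1.31 computed for replicate 4 rests on a control signal that was not above background, so no fold is given for it, but it enters the mean. Its mean of 2.29 ± 1.29 (SD, n = 3; limma SE 0.54), 4.88-fold, had an adjusted p of 0.114 by limma. With the replicate block the same mean had an SE of 0.40 and an adjusted p of 0.00817 by limma, where the 3 replicate ratios alone gave an SE of 0.54. The second DPPA3 probe, EMBV3_04405, exceeded background in 3 FID and 2 control channels of 6 and was not tested. Its ratios of 0.11, 0.33 and 0.04 did not show the difference seen with the tested probe, EMBV3_26840, in any replicate.

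H1FOO, the linker histone of the oocyte, whose current RefSeq symbol is H1-8, had 4 tested probes that differed in direction. The brightest, EMBV3_01861, had ratios of -0.53, 1.24 and -0.37, with a mean of 0.11 (limma SE 0.42, adjusted p = 0.921). Its signal was 1.02 and 1.32 in FID against 1.87 and 1.43 in control in replicate 1, and 1.75 and 2.51 against 1.48 and 1.08 in replicate 2. In replicate 4 it was 1.32 and 1.47 in FID against 2.16 and 1.49 in control. FID was thus dimmer in replicates 1 and 4 and brighter in replicate 2, and the conditions overlapped over the 6 arrays. The probe EMBV3_01755 had 0.48, 0.82 and 0.10 (limma adjusted p = 0.223), and exceeded background in 4 FID and 2 control channels of 6. The probe EMBV3_21113 had 0.27, 0.47 and 0.11 (limma adjusted p = 0.25), and EMBV3_21367 had -0.01, 0.26 and 0.04 (limma adjusted p = 0.656). Across the 4 probes only replicate 2 had a ratio above 0 on each.

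NLRP5, OOEP and PADI6 belong to the complex under the oocyte's plasma membrane that the mouse embryo needs for its first divisions. NLRP5, also called MATER, had its largest ratio in replicate 2. Its signal was 2.03 and 1.95 in FID against 1.68 and 1.82 in control in replicate 1, and 5.68 and 6.61 against 1.29 and 2.81 in replicate 2. In replicate 4 all values were close to the background limit, with 1.01 and 1.01 in FID against 0.924 and 1.11 in control. The ratios were 0.51, 2.44 and -0.01, or 1.42-fold in replicate 1 and 5.41-fold in replicate 2. The mean of 0.98 ± 1.29 (SD, n = 3; limma SE 0.54) had an adjusted p of 0.386 by limma.

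OOEP, a KH-domain protein of the same complex, had a signal of 1.31 and 1.57 in FID against 1.52 and 1.41 in control in replicate 1. In replicate 2 it was 1.79 and 1.98 against 1.40 and 0.828, and in replicate 4 it was 1.21 and 1.33 against 1.20 and 1.45. The conditions overlapped in replicates 1 and 4 and separated in replicate 2. The ratios of 0.13, 1.27 and 0.00 gave a mean of 0.47 (limma SE 0.30, adjusted p = 0.454).

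PADI6, a protein of the arginine deiminase family that is needed for the fibrous lattices of the mouse oocyte, was close to background throughout. Its signal ranged from 0.817 to 1.33 in FID and from 0.800 to 1.12 in control, with 4 of 6 arrays above background in each condition. The ratios of 0.04, 0.64 and -0.01 gave a mean of 0.22 (limma SE 0.17, adjusted p = 0.531).

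Among the proteins that act on stored RNA, BTG4 and ZAR1 had the widest spread between replicates. BTG4 joins maternal messenger RNA to the deadenylase complex that clears it during maturation, as known from the mouse. Its signal was 14.8 and 20.2 in FID against 6.52 and 6.75 in control in replicate 1, and 43.7 and 47.2 against 3.59 and 2.87 in replicate 2. In replicate 4 it was 0.909 and 1.20 in FID against 1.10 and 0.971 in control. FID exceeded control on both arrays of replicates 1 and 2, and the conditions crossed at background level in replicate 4.

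The ratio of BTG4 was 1.81, 4.47 and 0.07, or 3.51-fold in replicate 1 and 22.1-fold in replicate 2. Among the 12362 tested genes it ranked 93 in replicate 1 and 5 in replicate 2, counted from the highest ratio. The mean of 2.12 ± 2.21 (SD, n = 3; limma SE 0.92), 4.34-fold, had an adjusted p of 0.288 by limma. The SD exceeded the mean.

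ZAR1, an RNA-binding protein of the oocyte that the mouse zygote needs, was likewise brightest in FID in replicate 2. Its signal was 5.26 and 7.87 in FID against 3.11 and 3.16 in control in replicate 1, and 19.6 and 19.0 against 1.68 and 1.24 in replicate 2. In replicate 4 neither condition was above background, with 0.781 and 0.976 in FID against 0.804 and 0.919 in control. The ratio was 1.51 in replicate 1 and 4.60 in replicate 2, or 2.86-fold and 24.2-fold, and ranked 157 and 4 among the tested genes. The 0.13 computed for replicate 4 compares signals below background and enters the mean. The mean of 2.08 ± 2.29 (SD, n = 3; limma SE 0.96), 4.23-fold, had an adjusted p of 0.307 by limma. The ratio was above 0 on 6 of 6 arrays for ZAR1 and for DPPA3, 2 of the 10 genes, against 12.6% of all tested genes.

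DAZL, a germ-cell protein that promotes the translation of stored messenger RNA, stayed close to background. Its tested probe, EMBV3_17768, had a signal of 0.839 to 1.69 in FID and 0.921 to 1.28 in control. The ratios of -0.05, 0.81 and -0.20 gave a mean of 0.19 (limma SE 0.24, adjusted p = 0.737), above 0 in replicate 2 alone. The probe EMBV3_04977 was above background on 3 of 6 arrays in each condition and EMBV3_25145 on 0 of 6 in each, and neither was tested.

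**Figure D2:**
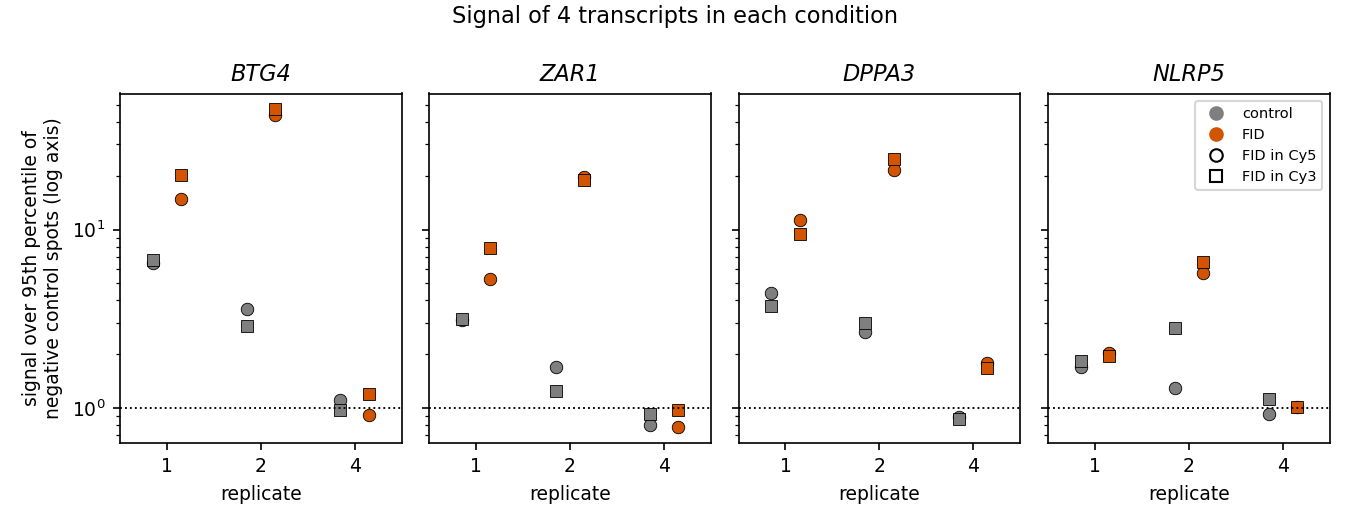
Signal of BTG4, ZAR1, DPPA3 and NLRP5 over the background limit, on a log axis, for FID (orange) and control (grey) on both arrays of each replicate, with circles for FID in Cy5 and squares for FID in Cy3. The dotted line at 1 is the background limit, which 95% of the negative controls do not exceed, and the FID signal of all 4 transcripts is highest in replicate 2 and lowest in replicate 4.

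The meiotic kinases were measured by several probes that did not move together. MOS starts the mitogen-activated protein kinase cascade of the oocyte and holds the mature egg in metaphase arrest. Of its 4 tested probes, EMBV3_32554 had a signal of 1.37 and 1.80 in FID against 1.67 and 1.38 in control in replicate 1, and 3.40 and 4.40 against 1.33 and 1.14 in replicate 2. In replicate 4 it was 1.11 and 1.28 against 1.06 and 1.30. Its ratios were 0.28, 2.37 and 0.07 (limma adjusted p = 0.417), so that it separated the conditions in replicate 2.

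The MOS probe EMBV3_23098 had ratios of 0.21, 2.61 and -0.06 (limma adjusted p = 0.471) and exceeded background in 4 FID and 2 control channels of 6. In replicate 2 its control signal was 0.864 and 0.759, so that the 2.61 rests on a control signal that was not above background. In replicate 4 neither condition was above background for this probe. The brightest MOS probe, EMBV3_05574, had smaller and more even ratios of 0.34, 0.78 and 0.38, with a mean of 0.50 (limma SE 0.13, adjusted p = 0.132). Its ratio followed the dye, with a mean of -0.30 on the arrays with FID in Cy5 and 1.30 on those with FID in Cy3. The probe EMBV3_28731 behaved likewise, with ratios of 0.00, 0.67 and 0.16 (limma adjusted p = 0.421) and dye means of -0.53 and 1.09. The MOS probes with the large ratio in replicate 2 are thus not the ones with a dye effect, which for EMBV3_23098 was 0.06 and for EMBV3_32554 was -0.06 on the log2 scale.

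WEE2, an oocyte kinase that restrains the cyclin-dependent kinase CDK1, stayed close to background and showed no large ratio in any replicate. The signal of its tested probes ranged from 0.821 to 1.32 in FID and from 0.850 to 1.13 in control. Ratios of such dim probes are compressed towards 0. Its brightest probe, EMBV3_38048, had ratios of 0.15, 0.23 and -0.06, with a mean of 0.10 (limma adjusted p = 0.646). The mean was 0.63 with FID in Cy5 and -0.43 with FID in Cy3. The probe EMBV3_35592 had 0.08, 0.20 and -0.00 (limma adjusted p = 0.631). The third probe, EMBV3_21726, exceeded background in 3 of 6 FID channels and in 0 of 6 control channels and was not tested.

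**Figure D3:**
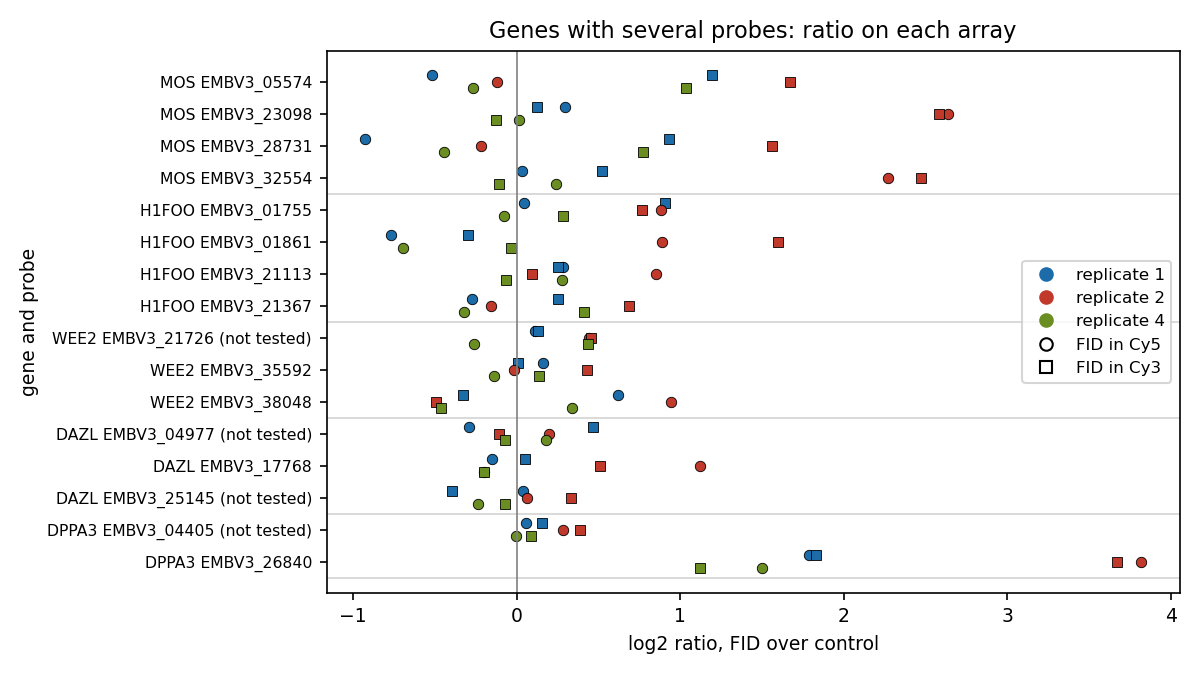
Log2 ratio of FID over control on each array for all 16 probes of the 5 genes with more than 1 probe, with colours for replicates and symbols for the dye of FID. The MOS probes EMBV3_23098 and EMBV3_32554 and the DPPA3 probe EMBV3_26840 stand out in replicate 2, whereas EMBV3_05574 and EMBV3_28731 of MOS split by dye. The control signal of EMBV3_23098 was not above background in replicate 2.

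Both sides of the ratio differed between replicates. After the arrays were set to a common distribution of mean log2 intensity (limma's Aquantile), the FID level of BTG4 was 1.45 higher in replicate 2 than in replicate 1, and the control level fell by 1.20. For ZAR1 the FID level was 1.66 higher and the control level fell by 1.43, and for DPPA3 these were 1.24 higher and a fall of 0.70. For NLRP5 the FID level was 1.95 higher, and the control level differed by 0.02 in the mean of arrays that disagreed. Its control level was 7.11 and 8.78 in replicate 2 against 7.80 and 8.05 in replicate 1. The FID level was higher in replicate 2 than in replicate 1 for 10 of the 10 genes, against 46.7% of all tested genes, and higher than in both others for 10 of the 10, against 31.6%. The control level was lower for 8 of the 10, against 53.4%, and both held for 8 of the 10, against 21.2%.

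In replicate 4 the FID level was lowest for 9 of the 10 genes, against 33.1% of all tested genes, and the control level for 6 of the 10, against 42.1%. For OOEP, PADI6, H1FOO and DAZL the control level was lowest in replicate 2. The transcripts with the largest ratios were low in replicate 4 in both conditions: relative to replicate 1, the log2 level of BTG4 fell by 4.89 in FID and by 3.15 in control. That of ZAR1 fell by 3.81 and 2.42, that of DPPA3 by 3.21 and 2.71, and that of NLRP5 by 1.56 and 1.04. Only MOS and H1FOO, 2 of the 10 genes, exceeded background on each of the 6 arrays in FID and in control, against 67.7% of all tested genes, and for the others the ratio in replicate 4 rests on signals near or below background.

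The summed level of the 10 genes, in normalized intensity units, was 8306 and 10130 in FID against 3814 and 3523 in control in replicate 1. It was 22077 and 24804 in FID against 2244 and 2360 in control in replicate 2, and 1523 and 1624 against 1472 and 1360 in replicate 4. The order of the FID sums, replicate 2 over 1 over 4, was not that of the control sums, where replicate 1 was highest. Such a sum weights the brightest genes most. In FID of replicate 2 the log2 level was 13.4 for BTG4, 12.4 for DPPA3 and 12.1 for ZAR1. The highest of the other genes was NLRP5 at 10.4.

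Established markers of the oocyte were also highest in replicate 2 for most genes. Of 15 oocyte markers, none of them among the 10 genes, 14 had a probe and 13 were tested. Their median ratio was 1.39, with 1.11, 2.54 and 0.10 in replicates 1, 2 and 4, and all 13 had a mean above 0. Replicate 2 was highest for 12 of the 13, against the 29.4% of all tested genes given above. By limma 0 of the 13 were called, and 1 was at an unadjusted p under 0.05, against 28.6% of all genes. In the block fit 1 was called, GDF9, against 20.8% of all genes. The summed level of these markers ranged from 2120 to 42700 in FID and from 1890 to 6730 in control.

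The zona pellucida protein ZP2 had ratios of 2.10, 4.61 and 0.16 (limma adjusted p = 0.262), and the oocyte transcription factor FIGLA had 1.34, 3.87 and 0.10 (limma adjusted p = 0.302). The closest relative of ZAR1, ZAR1L, had 1.61, 4.98 and 0.09 (limma adjusted p = 0.316), and the oocyte importin KPNA7 had 1.64, 4.88 and 0.12 (limma adjusted p = 0.307). In each of these the ratio was highest in replicate 2 and lowest in replicate 4. NOBOX was not tested, and NPM2 had no probe.

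Markers of the cumulus and granulosa cells did not show this order. The 14 cumulus and granulosa markers had a median of 0.04, with replicate 2 highest for 2 of them. By limma 0 of the 14 were called, against 2.36% of all genes. With the replicate block 8 of the 14 were called (3 as higher, 5 as lower), against 20.8% of all genes. The median of 0.04 therefore lay between markers called in opposite directions. On summed level, FID spanned 151000 to 172000 and control 157000 to 179000. The 5 theca markers tested had a median of -0.03, with replicate 2 highest for 2 of them, and sums of 10600 to 14300 in FID and 15800 to 24600 in control. The 6 stroma markers had a median of -0.54, with replicate 2 highest for 0 of them, and LUM and PDGFRA were lower by limma, 2 of 6 genes against 2.36% of all genes called. Their sums were 2530 to 3980 in FID against 7340 to 10300 in control cells. The 7 blood and immune markers had a median of 0.29, with replicate 2 highest for 4 of them. These 4 included HBA with 0.34, 1.67 and 0.80 and PTPRC with -0.16, 1.32 and -0.30. The sums of the 7 markers were 2070 to 5220 in FID against 1610 to 3210 in control. The 4 endothelial markers had a median of 0.14, with replicate 2 highest for 2 of them, and sums of 498 to 718 against 507 to 671. In the block fit 1 theca marker was higher and 1 lower, and 3 stroma markers were lower. There 2 blood and immune markers were higher and 0 endothelial markers were called, against 20.8% of all genes. The markers FOXL2, LHCGR, HBB and PECAM1 were not tested. The part of the oocyte markers, which moved with the 10 genes over the replicates, in the ratios of the 10 genes was not tested.

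The oocyte's wider programme was divided by function. Each of the 13 tested oocyte markers recurs in these lists of secreted, maternal-effect and meiosis genes, so the counts below are not separate from those of the markers. Of 15 secreted, zona and transcription factor genes, 13 had a probe and 11 were tested. Their median ratio was 0.98, with 11 of 11 above 0, 0 called by limma and 2 at an unadjusted p under 0.05, against 28.6% of all tested genes. Replicate 2 was highest for 9 of the 11 and replicate 4 lowest for 9, against 29.4% and 33.2% of all genes, and KIT, the receptor of kit ligand, ran otherwise, with 0.79, 0.54 and 0.84. In the block fit 2 of the 11 were higher, GDF9 and KIT, against 8.84% of all genes. Of 31 further maternal-effect and translation genes, 23 had a probe and 20 were tested, with a median of 0.42, 18 above 0, 0 called and 4 at an unadjusted p under 0.05, a share below that of all genes. Replicate 2 was highest for 13 of these 20 and replicate 4 lowest for 8, so that part of the list ran otherwise, such as the chromatin corepressor TRIM28 with 1.20, 1.49 and 2.89. In that list CPEB1, which controls the polyadenylation of stored messenger RNA, had ratios of 0.87, 1.63 and 0.87 (limma adjusted p = 0.0798). Its ratio was thus above 0 in each replicate and highest in replicate 2. The nucleoplasmin relative NPM3 had -0.64, -0.73 and -0.67 (limma adjusted p = 0.0550). In the block fit 3 of the 20 genes were called, against 20.8% of all genes: CPEB1 (adjusted p = 0.00464) and TRIM28 (adjusted p = 0.00650) as higher, and NPM3 (adjusted p = 0.00709) as lower.

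Of 39 genes of meiosis, 35 had a probe and 31 were tested, with a median of 0.14, 21 above 0 and 16 highest in replicate 2. In this list 1 gene was higher by limma, BTG2, and 0 were lower, against 2.36% of all genes called, with 9 at an unadjusted p under 0.05, close to the 28.6% of all genes. In the block fit 4 of the 31 were higher and 1 was lower, against 20.8% of all genes called. BTG2, an antiproliferative relative of BTG4 that somatic cells also express, had ratios of 2.86, 2.47 and 2.81 (limma adjusted p = 0.0476). The call of BTG2, like those of LUM and PDGFRA, ended without background correction, with marked spots kept in the background fit, with the authors' deposited ratios and with any 1 replicate left out, where no probe was called. BTG2 was thus even over the replicates, whereas BTG4 ranged from 0.07 to 4.47. The synaptonemal complex gene SYCP3 had 1.35, 3.56 and -0.03 (limma adjusted p = 0.312), close to the order of ZAR1. Genes of cell division, which dividing somatic cells also use, differed among themselves: the cyclin CCNB1 had 0.28, 1.58 and -1.02, its partner kinase CDK1 had -0.26, -0.50 and -0.95, and the kinase AURKA had 0.94, 3.51 and 0.88. The receptor GPR3, which keeps cyclic AMP high in the oocyte, had 0.34, 0.23 and 0.22 (limma adjusted p = 0.189), and the oocyte phosphodiesterase PDE3A had 0.21, 0.08 and 0.09 (limma adjusted p = 0.484).

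**Figure D4:**
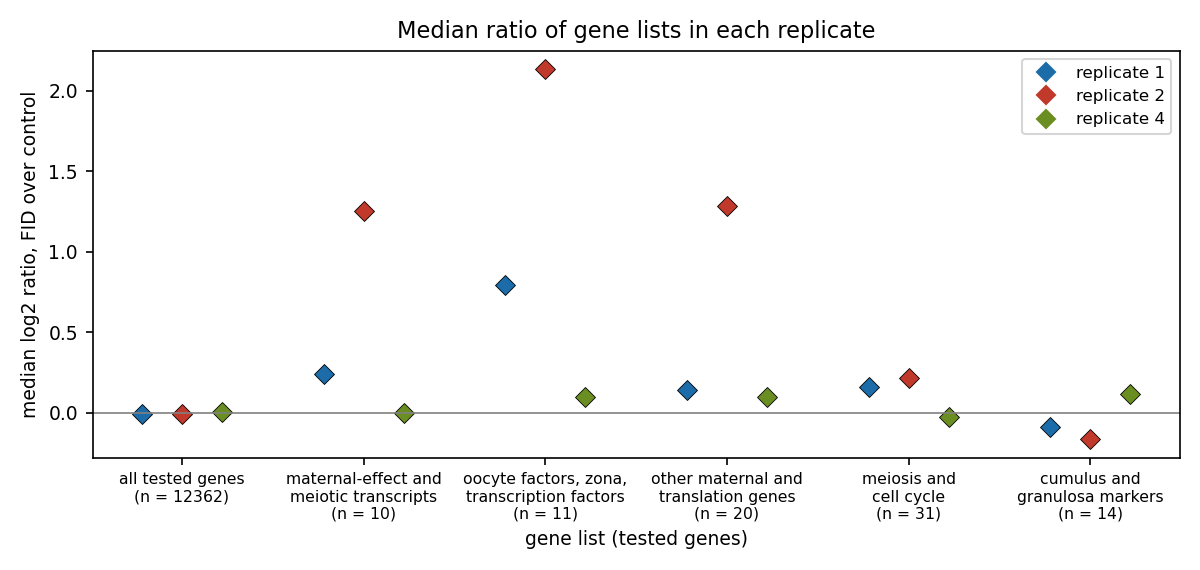
Median log2 ratio of FID over control in each replicate for all tested genes, the 10 genes, 3 further lists of oocyte and meiosis genes, and the cumulus and granulosa markers, with colours for replicates. The 10 genes, the secreted, zona and transcription factor genes and the other maternal genes are highest in replicate 2, with 1.26, 2.13 and 1.29, and lie between -0.00 and 0.10 in replicate 4, while the cumulus and granulosa markers lie at -0.16 and 0.12 in replicates 2 and 4.

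The genes whose 3 ratios lay nearest to the medians of the 10 genes were sought among the 12352 other tested genes by Euclidean distance on the log2 scale. They were TMEM117 at a distance of 0.056, THAP1 at 0.067, NLRP8 at 0.073, WIF1 and HABP4 at 0.090, C22H3ORF37 at 0.100, LMO3 at 0.128, ACSL5 at 0.129, and SH3BP5 and PREX1 at 0.143. Of these 10 nearest genes, 1 was in the oocyte lists, NLRP8, with ratios of 0.19, 1.20 and -0.00. Those lists held 11, 20 and 31 of the tested genes. The medians lie well below BTG4, ZAR1 and DPPA3, which had 4.47, 4.60 and 3.74 in replicate 2. Genes near these 3, such as ZAR1L and KPNA7, were therefore not found by this distance.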

How the data were processed

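Bovine cumulus cells were measured on 6 Agilent 2-colour arrays. The authors deposited raw intensity and local background for each spot in both channels, Cy3 at 532 nm and Cy5 at 635 nm, per the file headers, and log2 ratios in a pair of identical tables (largest difference 0). RNA was amplified in 2 rounds before labelling, per the labels' protocols. The method behind the authors' deposited log2 ratios is not given in the sources used here. They ran as Cy5 over Cy3 (slopes 0.949 to 1.02, r 0.992 to 0.997 with the ratios here, medians -0.0185 to -0.00285), so scale and direction are settled and the centring is unknown beyond these medians. They served as an alternative.

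Spots marked in the files as to be ignored, 13 to 88 per array, were left out. Mean foreground and median local background were corrected by normexp (offset 50) and each array was normalized by loess, with 1418 control spots at weight 0, in limma 3.58.1 and R 4.3.3. The sign of arrays with FID in Cy3 was turned, and dye-swap arrays of a replicate were averaged. The 32124 probes above the 95th percentile of 153 negative control spots, in either condition on 4 or more of 6 arrays, entered limma's lmFit and eBayes against a ratio of 0, adjusted by Benjamini-Hochberg at 0.05, with 2 residual and 1.85 prior degrees of freedom. The MOS probe EMBV3_23098 and the H1FOO probe EMBV3_01755 passed this filter through FID alone. No probe of the 10 genes was saturated or marked. Spots with low signal over the negative controls, which the local background of 16 to 59 units does not remove, have ratios compressed towards 0.

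A gene is its brightest tested probe. Named genes are the 10 genes with all their probes, fixed lists of oocyte genes and markers, and the 10 genes nearest in pattern. The members, lists and processing were chosen with earlier results of these data known. Same-numbered arrays are the dye swap of 1 biological replicate per the series design, and correlated at 0.553 to 0.807, so the alternative fit kept the replicate as a random block (correlation 0.608). The number of arrays limits the precision. Alternatives covered background correction, normalization, marked spots, the filter, dye orientation, the choice of probe and leaving out each replicate. A genome build and sequences were not used here.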

Additional observations from a re-analysis of the deposited data

Results flagged for a closer look

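For 4 of the 17 tested probes of the 10 genes, the ratio of FID over control differed between the 2 dye orientations by limma's dye term in the fit of 6 arrays with the replicate as a block, against 22.9% of all tested probes. The dye effect is Cy5 minus Cy3 on the log2 scale. It adds to the ratio with FID in Cy5 and is taken from it with FID in Cy3, so the orientations differ by more than its size. The effect was -0.80 for the MOS probe EMBV3_05574 (limma adjusted p = 0.00199) and -0.81 for the MOS probe EMBV3_28731 (limma adjusted p = 0.00236). It was 0.53 for the WEE2 probe EMBV3_38048 (limma adjusted p = 0.00425), whose ratio was above 0 on all 3 arrays with FID in Cy5 and below 0 on all 3 with FID in Cy3. It was -0.35 for the H1FOO probe EMBV3_21367 (limma adjusted p = 0.00777), with mean ratios of -0.25 with FID in Cy5 and 0.45 with FID in Cy3. For these 4 probes the reported ratio is the mean of orientations with opposite signs.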

How the results depend on the processing

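The number of probes called was 557 (292 named genes, and 0 of the 10 genes) as reported. It was 0 (0 genes) without background correction, with marked spots kept in the background fit and with the authors' deposited log2 ratios, and 0 to 0 (0 to 0 genes) with 1 replicate left out. In these settings 4863 to 7428 probes had an unadjusted limma p under 0.05, and the smallest adjusted p was 0.0505 to 0.249. It was 1413 (710 genes) with a normexp offset of 0, and 979 (540 genes) for the probes that exceeded background in every channel of every array. It was 1610 (798 genes) with FID in Cy5 only and 2319 (1136 genes) with FID in Cy3 only. With the replicate block, in which all probes share 1 correlation of 0.608 between the arrays of a replicate, it was 5177 (2566 genes). The reported fit uses the dye-swap pairing as well, by averaging each pair. Median centring gave 234 higher and 529 lower, against 248 and 309. Of the 10 genes, 1 was called with FID in Cy3 only, MOS at 1.30 (limma adjusted p = 0.0357), and 1 with the replicate block, DPPA3. The block changed no other call among the 10 genes. The adjusted p of DPPA3 ranged from 0.00817 to 0.249 and that of MOS from 0.0357 to 0.382 over the alternatives.

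Of 142 values of single genes over 15 alternatives, 134 kept their direction and their side of the threshold, 2 passed it and 6 reversed. Some alternatives could not change the direction. Aquantile scaling left ratios and p-values as they were. The settings without the filter and with the replicate block kept each gene's ratio and changed only its p-value. The stricter filter did so for MOS and H1FOO, the only 2 of the 10 genes it left in the test. The other genes had no value under it. The reversed values were MOS at -0.30 with FID in Cy5 only, WEE2 at -0.43 with FID in Cy3 only, H1FOO at -0.19 with FID in Cy5 only, -0.080 with marked spots kept and -0.45 without replicate 2, and DAZL at -0.13 without replicate 2. With 1 replicate left out, H1FOO ranged from -0.45 to 0.44 and DAZL from -0.13 to 0.38. The causes were not tested. The median over the 10 genes was 0.16 without replicate 2, with 8 of 10 genes above 0, 0.63 without replicate 4 and 0.61 without replicate 1, against 0.48. Without replicate 2 the mean ratio of BTG4 was 0.94, of ZAR1 0.82 and of NLRP5 0.25, while without replicate 4 they were 3.14, 3.06 and 1.47. A block by slide or scan was not run, since the file headers give neither. Signal over background limits replicate 4 most, where ZAR1 was not above background in either condition.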
